A study of Mus musculus with 8 samples.

Results

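The 10 genes described here encode S100 calcium-binding proteins: S100a1, S100a4, S100a6, S100a8, S100a9, S100a10, S100a11, S100a13, S100a14 and S100a16. They were the rows of the gene count table whose Entrez identifier maps to these symbols, 10 of 27179 genes. The rule used symbols and no measured value, but the members were chosen with earlier results of these data known. The study sequenced RNA from the mouse mammary tumour lines 67NR, 66cl4, 4T1 and 4T1.2, each in 2 biological replicates, which gave 8 libraries. The lines are siblings that arose from a single spontaneous BALB/c mammary tumour, and 4T1.2 is a clone of 4T1. The labels name no treatment and no engineered allele, so the groups differ by line alone. The study described 66cl4 and 67NR as lines of low metastatic potential beside 4T1 and 4T1.2. It compared their transcripts to explore how tumour cells might drive changes in their surroundings, and looked mainly at growth factors and chemokines. Each group is thus a single cell line, and a difference between the pairs of lines cannot be told apart from other differences between these 4 lines. Whether the replicates were separate cultures was not stated beyond the word biological, so the p-values measure the spread between these libraries.

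S100 proteins are small proteins with paired EF-hand motifs, loops that bind calcium. Most form dimers, and calcium binding exposes a surface through which they hold partner proteins such as annexins and cytoskeletal proteins. Several members are released from cells and act on receptors such as RAGE and TLR4. In mammary tumours S100a4 is known for its part in cell motility and metastasis, and S100a8 and S100a9 are known mainly as the abundant calprotectin subunits of neutrophils and other myeloid cells.

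All 10 members lie on chromosome 3 within 3054 kb (GRCm38, positions from RefSeq). A first group of 8 runs from S100a1 (chr3:90511034-90514330) through S100a13 (chr3:90514233-90524581), S100a14 (chr3:90526849-90528837), S100a16 (chr3:90537254-90543151), S100a4 (chr3:90603770-90606045), S100a6 (chr3:90612894-90614414) and S100a8 (chr3:90669071-90670034) to S100a9 (chr3:90692630-90695721). The other 2, S100a11 (chr3:93520496-93526288) and S100a10 (chr3:93555117-93564645), stand apart from them. Reads were counted over all exons of a gene, without a separate value for coding sequence or UTR.

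The region just before the RefSeq transcription start differed between neighbouring members. The 30 bases from 45 to 16 before the RefSeq start are shown for the 2 most abundant members and for the calprotectin pair, in which the motif TATAAA is in capitals where it occurs. The lines below give S100a4 (chr3:90603725-90603754, plus strand), S100a6 (chr3:90612849-90612878, plus strand), S100a8 (chr3:90669026-90669055, plus strand) and S100a9 (chr3:90695737-90695766, minus strand).
S100a4: agggcctggcagggTATAAAtaggtcagat
S100a6: tttaaggacactgctctcgggctggcagaa
S100a8: ggccaagctttcctcTATAAAagcagctga
S100a9: aagcaatcttccccgagataaccatgtatc
S100a4 had TATAAA starting 31 bases before its start and S100a8 had it 30 bases before, whereas these letters were not in the stretches of S100a6 and S100a9. TATAAA on the gene's strand occurred within 250 bases before the start in 7.59% of 32851 RefSeq windows. In the same window, read on both strands, the C/EBP element TTNNGNAA was found in S100a8 at 117 bases and in S100a9 at 236 and 130 bases before the start, a motif held by 36.8% of windows. The AP-1 element TGANTCA, held by 6.75% of windows, was found in S100a11 as TGAGTCA at 136 and 38 bases, beside 3 copies of the GC box GGGCGG, which 32.7% of windows held. The other S100a16 window held the AP-1 element as TGAATCA at 192 bases and a GC box at 30 bases, and S100a9 held a GC box at 223 bases. Of the 9 windows for 8 members, those of S100a1, S100a13 and S100a6 and 1 of the 2 of S100a16 held none of the 4 motifs. Annotated UTR covered 93 of the 250 bases for S100a8, 93 for S100a1, 192 for S100a13, 12 for S100a6 and 8 for S100a11. It covered 0 in the other windows. The windows with annotated UTR are thus not wholly outside annotated transcripts. The sequences are of the C57BL/6J reference, and the lines are BALB/c cells, so a base may differ in them. A match is a run of letters, and binding was not measured here.

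Levels between genes were compared as RPKM, which is CPM (counts per 1000000 of the TMM-adjusted library size) per kilobase of exon. S100a4 and S100a6 took the first 2 places and S100a10 and S100a11 the next 2 in each of the 4 lines. The mean S100a4 level was 5900 ± 343 RPKM in 67NR (SD, n = 2, as for the following), 3610 ± 280 in 66cl4, 2880 ± 482 in 4T1 and 3350 ± 338 in 4T1.2. The mean S100a6 level was 1970 ± 233 RPKM in 67NR, 1480 ± 192 in 66cl4, 2760 ± 694 in 4T1 and 2980 ± 221 in 4T1.2. In 4T1.2 and in 4T1 the RPKM ranges of these 2 genes overlapped. Within a library S100a4 stood above S100a6 in both 4T1.2 libraries and in replicate 1 of 4T1, and just below it in replicate 2 of 4T1. S100a1 and S100a13 followed. S100a16 and S100a8 were lower, and S100a14 and S100a9 took the last 2 places. The 10 members together held between 0.299% and 0.532% of a library's counts, of which S100a4 and S100a6 made up 78.4% to 85.5%.

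**Figure D1:**
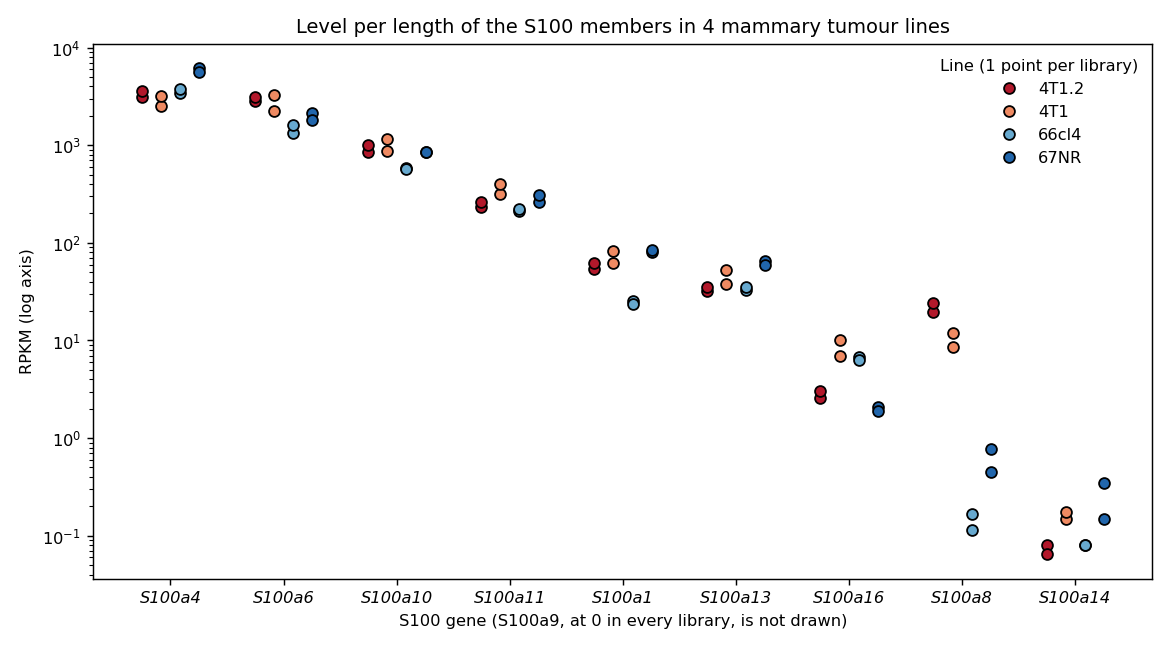
Level per length (RPKM, log axis) of 9 S100 genes, with 1 point for each library, coloured by line. S100a4 and S100a6 lie above 1000 RPKM in every library, S100a8 spans from 0.114 RPKM in 66cl4 to 24.0 in 4T1.2, and S100a9, listed at 0 in all libraries, is not drawn.

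Libraries held 37159840 to 66269681 counts, and differences between lines were tested on counts with edgeR's quasi-likelihood test over 13928 genes, with Benjamini-Hochberg adjusted p-values and a threshold of 0.05. Of the members, 8 passed the filter on low counts and were tested, and S100a9 and S100a14 did not pass. Of 8 mammary epithelial markers, the luminal keratin Krt8 was found in all 8 libraries with at least 16981 counts, and the summed level was 1840 to 3430 CPM in 4T1.2 and 4T1, 719 to 722 in 66cl4 and 465 to 530 in 67NR. Epcam and Cdh1 had at most 7 counts in each 66cl4 and 67NR library, whereas Krt18 had 5219 and 5067 counts in 66cl4 and 30 and 70 in 67NR, and Krt7 had 34 and 65 in 67NR beside 111 and 115 in 66cl4. The other listed markers were low in every line. Krt19, also luminal, had at most 54 counts in a library, and the basal keratins Krt5 and Krt14 at most 9 and 42. The members are short, 392 to 1097 bases of exon, and all 10 fell in the shortest 10% of genes (up to 1173 bases). Gene length moved with library and line. Among the shortest 10% the median log2 difference of replicate 2 minus replicate 1 was 0.31 in 4T1 and 0.17 in 4T1.2, and -0.27 and -0.15 among the longest 10%. Among the shortest 10% the median log2 difference of 4T1/4T1.2 minus 66cl4/67NR was 0.36, and 679 of its 1181 genes were higher in 4T1/4T1.2 and 230 were lower. All 8 tested members were higher in replicate 2 of 4T1 than in replicate 1, by 0.34 to 0.53 on the log2 scale. The part of length in the differences below was not tested beyond a fit with the length trend removed, added after this was seen.

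S100a4, also called metastasin, binds non-muscle myosin and is known for its role in motility. Its CPM was 3066 and 2824 in 67NR, 1704 and 1902 in 66cl4, 1266 and 1606 in 4T1 and 1551 and 1789 in 4T1.2. The 2 libraries of 67NR, a line of low metastatic potential, lay above the other 6. The 4T1 libraries lay below those of 66cl4, and 4T1.2 overlapped both. S100a4 was lower in 4T1/4T1.2 than in 66cl4/67NR by a log2 difference of -0.57 (SE 0.10, edgeR adjusted p = 4.24e-04). It was lower in 4T1.2 than in 67NR (log2 difference -0.82, SE 0.14, edgeR adjusted p = 5.44e-04), lower in 4T1 than in 67NR (-1.04, SE 0.14, adjusted p = 1.14e-04) and lower in 66cl4 than in 67NR (-0.71, SE 0.14, adjusted p = 0.00264). These 4 calls held under every alternative run. 4T1.2 and 4T1 differed by 0.22 (SE 0.14, edgeR adjusted p = 0.331), and 4T1 and 66cl4 by -0.33 (SE 0.14, adjusted p = 0.0580), which passed the threshold in 7 of 21 alternatives. S100a4 shares 302 exon bases on the same strand with the predicted gene Gm42674 in GENCODE, and 44.8% of its 75-base stretches are found there. Part of its reads could thus be assigned to either where both are annotated. In the RefSeq positions used here, no other gene of the count table overlapped the span of S100a4.

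S100a6, calcyclin, which binds annexins and the ubiquitin ligase adaptor CacyBP, followed another order. Its CPM was 1537 and 1300 in 67NR, 966 and 1161 in 66cl4, 1632 and 2338 in 4T1 and 2030 and 2255 in 4T1.2. All 4 libraries of 4T1.2 and 4T1 lay above all 4 of 66cl4 and 67NR, although the lowest 4T1 and the highest 67NR library were close. The log2 difference of 4T1/4T1.2 minus 66cl4/67NR was 0.75 (SE 0.12, edgeR adjusted p = 3.32e-04), and this call held in all 20 alternatives, with 0.45 after removal of the length trend. 66cl4 and 67NR differed by -0.42 (SE 0.17, edgeR adjusted p = 0.0805), which passed the threshold in 7 of 21 alternatives. The per-length ratio of S100a4 to S100a6 within a library, which does not depend on the scaling between libraries, was 1.10 and 1.14 in 4T1.2 and 1.12 and 0.99 in 4T1. It was 2.54 and 2.36 in 66cl4 and 2.87 and 3.13 in 67NR, so the ranges of the 2 pairs of lines did not overlap.

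S100a10 is the p11 light chain, which pairs with annexin A2 at the plasma membrane and binds plasminogen. Its CPM was 552 and 549 in 67NR, 384 and 374 in 66cl4, 565 and 761 in 4T1 and 548 and 658 in 4T1.2. 66cl4 lay below all other libraries, and 67NR lay within the range of 4T1.2. S100a10 was higher in 4T1/4T1.2 than in 66cl4/67NR by 0.47 on the log2 scale (SE 0.10, edgeR adjusted p = 0.00169). It was higher in 4T1.2 than in 66cl4 (0.67, SE 0.14, edgeR adjusted p = 0.00198) and in 4T1 than in 66cl4 (0.81, SE 0.14, adjusted p = 6.19e-04). After removal of the length trend these 3 differences were 0.17, 0.37 and 0.42 and were still called. Against 67NR the log2 difference was 0.13 for 4T1.2 (edgeR adjusted p = 0.421) and 0.27 for 4T1 (adjusted p = 0.116), and both turned negative after removal of the length trend, to -0.086 and -0.033.

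S100a11, calgizzarin, binds annexin A1 and takes part in membrane repair. Its CPM was 132 and 155 in 67NR, 107 and 113 in 66cl4, 159 and 203 in 4T1 and 119 and 133 in 4T1.2. 4T1 held the highest 2 libraries and 66cl4 the lowest 2. S100a11 was higher in 4T1 than in 66cl4 by 0.72 on the log2 scale (SE 0.13, edgeR adjusted p = 7.32e-04), and this call held in all 21 alternatives, with 0.34 after removal of the length trend. Its pooled log2 difference was 0.26 (SE 0.09, edgeR adjusted p = 0.0238). That call was lost with library totals in place of TMM (0.13, edgeR adjusted p = 0.184), without replicate 2 of 4T1.2 or of 4T1, without replicate 1 of 66cl4 or of 67NR, and after removal of the length trend (-0.016, adjusted p = 0.779). The edgeR adjusted p of the pooled difference ran from 0.00143 to 0.779 over the 20 alternatives. 37.8% of its 75-base stretches also occur in the pseudogene Gm12854, and the row of S100a11-ps held 4 to 40 counts a library.

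The annexins and other partners of these proteins were measured in the same libraries. Of 14 partner genes listed, 12 were tested, and in 4T1/4T1.2 8 exceeded their 66cl4/67NR level (38.1% of all genes) and 3 were below it by the test (38.6%), with a median log2 difference of 0.92 beside -0.01 over all genes tested. Anxa2, the annexin bound by S100a10, had a pooled log2 difference of 0.42 (SE 0.10, edgeR adjusted p = 0.00276). Its CPM was 909 and 885 in 67NR, 1518 and 1485 in 66cl4, 1291 and 1734 in 4T1 and 1519 and 1670 in 4T1.2, so 66cl4 lay within the range of 4T1. S100a10 was lowest in 66cl4 and Anxa2 lowest in 67NR. Anxa1, the partner of S100a11, was higher in 4T1/4T1.2 by 1.35 (SE 0.09, edgeR adjusted p = 3.70e-07). Anxa5 rose by 1.64 and Anxa11 by 1.22. Anxa6 had 9341 to 10147 counts in each 4T1.2 and 4T1 library and 9 to 18 in each 66cl4 and 67NR library. Myh9, the heavy chain of the non-muscle myosin that S100a4 binds, was lower in 4T1/4T1.2 by -1.16 (SE 0.12, edgeR adjusted p = 8.37e-06), and the large scaffold Ahnak, bound by the S100a10 complex, by -0.54. Both are long genes, of 7371 and 18543 exon bases. Cacybp, the partner of S100a6, did not differ detectably (0.02, SE 0.07, edgeR adjusted p = 0.850). Sugt1, a co-chaperone that binds S100a6, and Hltf rose by 1.01 and 0.83, and the RhoGAP Dlc1 was lower at -1.51. Il1a and Syt1 did not pass the filter.

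**Figure D2:**
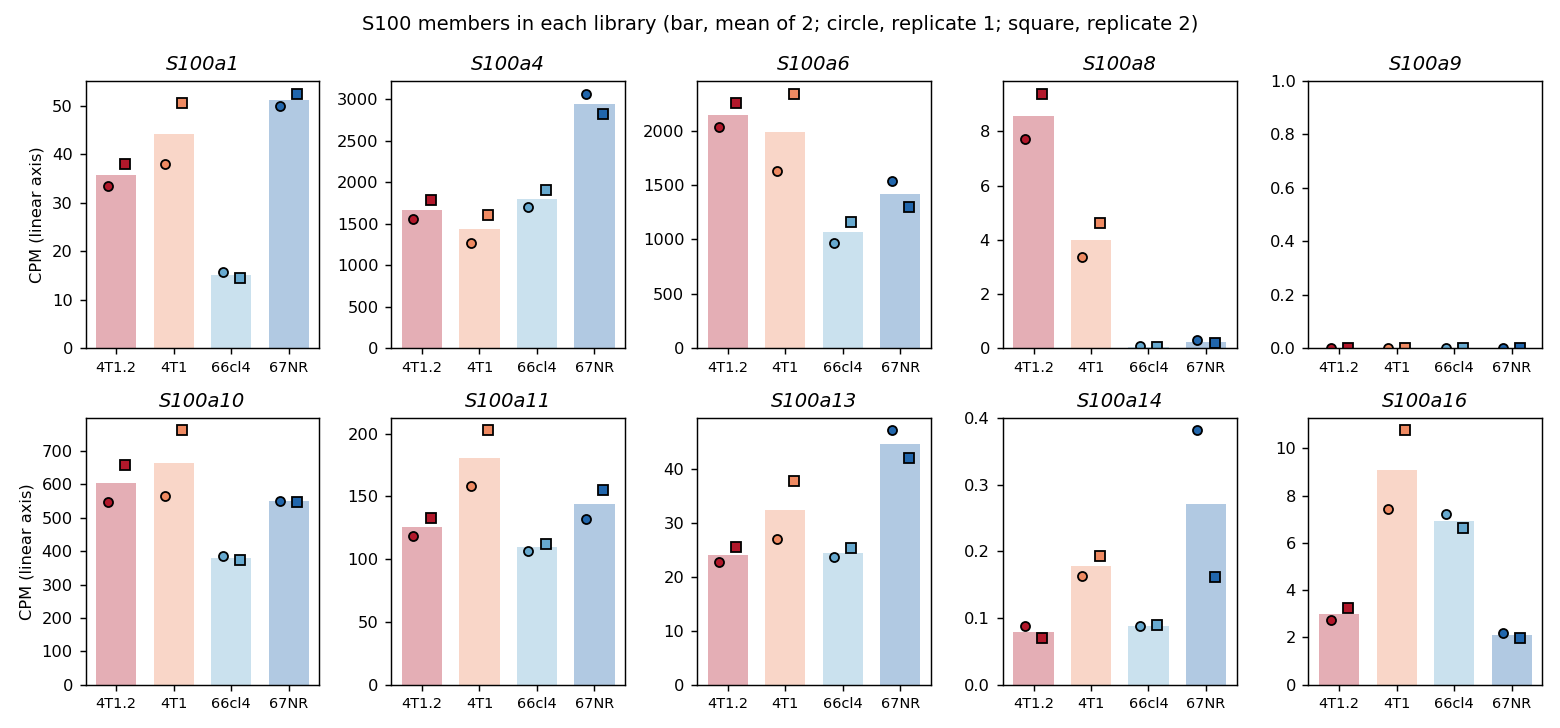
CPM (linear axis from 0, a separate scale for each gene) of the 10 S100 genes in the 8 libraries, where bars are means of 2, circles replicate 1 and squares replicate 2. S100a8 is seen in 4T1.2 and 4T1, S100a4 is highest in 67NR, S100a16 is highest in 4T1 and S100a9 is at 0 in every library.

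S100a8, a calprotectin subunit, showed the widest range among the members. Its counts were 11 and 11 in 67NR, 3 and 2 in 66cl4, 205 and 215 in 4T1 and 440 and 533 in 4T1.2. The 4 lines did not overlap on the CPM scale, where the mean was 0.239 ± 0.0861 in 67NR, 0.0554 ± 0.0153 in 66cl4, 3.99 ± 0.905 in 4T1 and 8.57 ± 1.17 in 4T1.2 (SD, n = 2). Since 66cl4 held only 2 to 3 counts a library, ratios are given with 95% counting intervals, which cover counting error only. The 4T1.2 level was 155 times that of 66cl4 (66.0 to 477) and 38.3 times that of 67NR (25.2 to 61.5). The 4T1 level was 70.4 times that of 66cl4 (29.9 to 218) and 17.5 times that of 67NR (11.4 to 28.2). The fitted pooled log2 difference was 5.67 (SE 0.24, edgeR adjusted p = 1.26e-08). Within the pair, 4T1.2 exceeded 4T1 by 1.11 on the log2 scale (SE 0.20, edgeR adjusted p = 0.00416), a call that held in all 20 alternatives with adjusted p-values up to 0.0461. The level of 67NR was 4.03 times that of 66cl4 (1.49 to 13.6), and the fitted difference (edgeR adjusted p = 0.0337) was no longer called without either replicate of 66cl4 or without replicate 1 of 67NR.

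S100a9, the other calprotectin subunit, had 0 counts in all 8 libraries. A count of 0 allows up to 3 counts, or 0.0486 to 0.0818 CPM depending on the library. Against this limit S100a8 was at least 183 and 221 times higher per length than S100a9 in the 4T1.2 libraries and at least 85.1 and 89.2 times higher in the 4T1 libraries. Myeloid cells express both genes, and bulk RNA cannot tell a few cells at a high level from many cells at a low level. Of 12 leucocyte markers, the G-CSF receptor gene Csf3r and the T-cell gene Cd3e were at 0 in every library. The pan-leucocyte gene Ptprc had at most 2 counts, and the neutrophil gene Ly6g had 1 to 5 in each 4T1.2 and 4T1 library and 0 in the others. Ltf, a neutrophil granule gene, reached 21 counts in a 4T1.2 library, and Itgam 16 in a 4T1 library. The summed marker level was 4.53 to 4.78 CPM in 4T1.2 and 5.20 to 5.67 in 4T1. It was 19.4 to 23.8 CPM in 66cl4 and 25.6 in both 67NR libraries, mostly from Lyz2, which had 791 to 1387 counts there and at most 4 in 4T1.2 and 4T1. Without Lyz2 and Cd68 the sum was 0.442 to 0.652 CPM in 4T1.2 and 4T1 and 0.178 to 0.243 in 66cl4 and 67NR. Of the 3 leucocyte markers tested, 2 were higher in 4T1/4T1.2 (38.1% of all genes) and 1 was lower (38.6%). Cd68 had 218 to 291 counts in the 4T1.2 and 4T1 libraries and 72 to 184 in the others (pooled log2 difference 0.97, SE 0.12, edgeR adjusted p = 3.71e-05). Itgam had 7 to 16 and 0 to 5 counts (2.04, SE 0.52, adjusted p = 0.00509), and Lyz2 was lower at -9.69 (SE 0.23, adjusted p = 1.51e-10). The summed level of 5 endothelial markers was 0.828 to 1.00 CPM in 4T1.2, 2.20 to 3.70 in 4T1, 0.334 to 0.441 in 66cl4 and 0.372 to 0.382 in 67NR. Kdr had at most 1 count and Emcn, at most 8, was at 0 outside 66cl4. Cdh5 had 204 and 90 counts in 4T1, 42 and 33 in 4T1.2 and 2 to 10 in the others (log2 difference 3.60, SE 0.34, edgeR adjusted p = 6.29e-06). Pecam1 had 11 to 18 counts in the 4T1.2 and 4T1 libraries and 2 to 8 in the others. It was higher in 4T1/4T1.2 by 1.00 (SE 0.32, edgeR adjusted p = 0.0170), but its test for any difference among the 4 lines was not called (edgeR adjusted p = 0.0648). The part of these markers in the S100a8 difference was not tested.

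Receptor genes for S100 proteins were listed as Ager, Tlr4, Ly96, Cd14, Bsg, Nptn, Mcam and Cd36, of which 7 were tested. In the pooled comparison 2 were higher in 4T1/4T1.2, none was lower and 5 were not called, which made 28.6% called beside 76.7% of all genes. Mcam, an adhesion molecule that binds S100A8 and S100A9, rose by 2.79 (SE 0.09, edgeR adjusted p = 1.10e-09), from 2.23 and 2.35 CPM in 67NR and 13.3 and 15.3 in 66cl4 to 32.2 and 31.2 in 4T1 and 52.2 and 46.4 in 4T1.2. Like S100a8, Mcam was higher in 4T1.2 than in 4T1 (0.64, SE 0.11, edgeR adjusted p = 0.00296), whereas it was also higher in 66cl4 than in 67NR (2.63, SE 0.13, adjusted p = 5.70e-07). Cd14, the co-receptor of TLR4, rose by 1.49 (SE 0.08, edgeR adjusted p = 6.30e-08). The pooled log2 difference of Tlr4 was -0.12 (SE 0.12, edgeR adjusted p = 0.390). Ager, which encodes RAGE, had 10 to 55 counts a library, and its difference was 0.69 (SE 0.31, edgeR adjusted p = 0.0677). Bsg and Nptn, of the basigin family, differed by 0.22 and -0.12 without a call, as did Ly96 by 0.22. Cd36 had at most 12 counts, in a 66cl4 library.

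S100a16, a member expressed in many tissues, differed between the lines of each pair. Its CPM was 2.21 and 1.99 in 67NR, 7.21 and 6.62 in 66cl4, 7.43 and 10.8 in 4T1 and 2.74 and 3.24 in 4T1.2. 4T1 and 66cl4 thus lay above 4T1.2 and 67NR with no overlap, an order that cuts across the metastatic potential of the lines. The log2 difference was -1.60 for 4T1.2 minus 4T1 (SE 0.20, edgeR adjusted p = 4.81e-04) and 1.73 for 66cl4 minus 67NR (SE 0.21, adjusted p = 1.33e-04). It was -1.21 for 4T1.2 minus 66cl4 (SE 0.20, edgeR adjusted p = 3.90e-04) and 2.12 for 4T1 minus 67NR (SE 0.21, adjusted p = 1.06e-05), and these 4 calls held under every alternative run. The pooled difference of 0.45 (SE 0.14, edgeR adjusted p = 0.0147) averaged over these opposite contrasts. It was not called without replicate 2 of 4T1.2 (0.39, edgeR adjusted p = 0.0571), without replicate 2 of 67NR (0.41, adjusted p = 0.0632) or after removal of the length trend (0.23, adjusted p = 0.0924), and its adjusted p ran from 9.64e-04 to 0.0924 over 20 alternatives.

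S100a14 had 14 and 10 counts in 67NR, 4 and 4 in 66cl4, 10 and 9 in 4T1 and 5 and 4 in 4T1.2, and was not tested. The 67NR level was 3.08 times that of 4T1.2 (1.38 to 7.52, 95% counting interval) and 2.75 times that of 66cl4 (1.19 to 7.08). The 67NR libraries differed from each other, at 0.382 and 0.162 CPM. Without replicate 1 of 67NR the ratios were 2.04 (0.746 to 5.68) and 1.83 (0.649 to 5.32), and without replicate 2 they were 4.82 (1.94 to 12.6) and 4.30 (1.68 to 11.8). The interval against 66cl4 also included equality without either replicate of 66cl4. With all libraries, the other pairs of lines had intervals that included equality.

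S100a1, best known from muscle, where it regulates calcium cycling, was low in 66cl4. Its CPM was 49.9 and 52.4 in 67NR, 15.7 and 14.4 in 66cl4, 37.9 and 50.5 in 4T1 and 33.5 and 38.0 in 4T1.2. 66cl4 lay apart from the other 6 libraries, and 4T1 reached from the range of 4T1.2 to that of 67NR. The log2 difference was -1.77 for 66cl4 minus 67NR (SE 0.14, edgeR adjusted p = 1.12e-05), 1.25 for 4T1.2 minus 66cl4 (SE 0.14, adjusted p = 3.09e-05) and 1.55 for 4T1 minus 66cl4 (SE 0.14, adjusted p = 6.27e-06). The pooled difference of 0.52 (SE 0.10, edgeR adjusted p = 7.89e-04) held in all 20 alternatives but was smaller, at 0.22, after removal of the length trend. 4T1.2 was lower than 67NR by -0.52 (SE 0.14, edgeR adjusted p = 0.00720), a call lost without replicate 1 of 4T1.2 or replicate 2 of 67NR.

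S100a13, which assists the release of FGF1 and IL-1 alpha from cells, was highest in 67NR. Its CPM was 47.1 and 42.1 in 67NR, 23.6 and 25.3 in 66cl4, 27.0 and 37.8 in 4T1 and 22.7 and 25.5 in 4T1.2. Both 67NR libraries lay above the other 6, and 4T1.2 and 66cl4 overlapped. S100a13 was lower than in 67NR by -0.89 in 4T1.2 (SE 0.15, edgeR adjusted p = 5.72e-04), by -0.87 in 66cl4 (SE 0.15, adjusted p = 0.00139) and by -0.46 in 4T1 (SE 0.15, adjusted p = 0.0211). The last call was lost without replicate 1 of 4T1 or of 67NR, and the difference was -0.73 without replicate 2 of 4T1 and -0.76 after removal of the length trend. The pooled difference was -0.24 (SE 0.11, edgeR adjusted p = 0.0646), which passed the threshold with library totals, with the replicate number as a block (-0.25, adjusted p = 0.0410), without replicate 2 of 4T1 and after removal of the length trend (-0.54, adjusted p = 8.51e-05). 4T1 minus 66cl4 was 0.40 (SE 0.15, edgeR adjusted p = 0.0379) and lost its call in 9 of 21 alternatives. Its cargo gene Fgf1 had 3694 to 5837 counts in the 4T1.2 and 4T1 libraries and 31 to 120 in the others (log2 difference 5.95, SE 0.15, edgeR adjusted p = 2.60e-10), whereas Il1a, the other cargo gene, had 2 to 9 counts in every library. The RefSeq spans of S100a1 and S100a13 overlap by 98 bases, and the library kit does not mark strand, so reads in these bases cannot be told apart.

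Across the 4 lines, 8 of the 8 tested members differed between some lines, beside 84.8% of all genes tested. In the comparison of 4T1/4T1.2 with 66cl4/67NR 7 of 8 were called, beside 76.7% of all genes. Of these, 6 were higher (38.1% of all genes) and 1, S100a4, was lower (38.6%). The split was 5 higher and 2 lower with library totals, a scaling that moved the median of all genes from -0.01 to -0.14, and 4 higher and 2 lower after removal of the length trend. The members' direction is to be read beside the shortest 10% of genes, where 679 of 1181 were higher and 230 lower. Of the 6 higher members, S100a6 and S100a8 alone were called higher in both 4T1.2 and 4T1 against each of 66cl4 and 67NR. The members' count lay near the background, since most genes differed between these lines.

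Between the lines of each pair fewer genes were called. In 4T1.2 against 4T1, 3 of 8 members were called beside 19.3% of all genes, with S100a8 higher (9.37% of all genes) and S100a16 and S100a11 lower (9.92%). The S100a11 difference of -0.52 (SE 0.13, edgeR adjusted p = 0.0199) was lost without either replicate of 4T1.2, without replicate 2 of 4T1 and with the 4 libraries alone (adjusted p = 0.0621), over a range of 0.00126 to 0.137. Without replicate 1 of 4T1, 5 members were called. In 66cl4 against 67NR, 7 of 8 were called beside 44.6% of all genes, 6 of them lower in 66cl4 (22.4% of all genes) and S100a16 higher (22.2%). On chromosome 3, where the members lie, 70.3% of 657 other tested genes were called, 406 lower in 66cl4 and 56 higher. The members' count is thus to be read beside the chromosome's share. S100a10 (-0.54, SE 0.14, edgeR adjusted p = 0.0121) and S100a11 (-0.39, SE 0.13, adjusted p = 0.0344) were among those lower. The S100a10 call was lost without any single library of these 2 lines, and the S100a11 call without either replicate of 66cl4 or replicate 2 of 67NR. 4 members were called without either replicate of 66cl4.

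Against 66cl4, 5 of 8 members were called in 4T1.2 (68.8% of all genes) and 6 of 8 in 4T1 (70.1%). In 4T1.2, S100a1, S100a6, S100a8 and S100a10 were higher (34.3% of all genes) and S100a16 lower (34.5%), and these 5 calls held under every alternative in which the gene was tested. In 4T1 all 6 were higher (34.9% of all genes, with 35.2% lower). Among the shortest 10% of genes, 643 of 1181 were higher than in 66cl4 and 196 lower in 4T1, and 596 higher and 209 lower in 4T1.2. The members' split in 4T1 was 5 higher and 1 lower with library totals. It was the same after removal of the length trend, where S100a4 was the member lower. After that removal 4T1.2 against 66cl4 had 4 higher and 3 lower. Against 67NR, 5 of 8 were called in 4T1.2 (67.9% of all genes) and 6 of 8 in 4T1 (68.2%). In 4T1.2, S100a6 and S100a8 were higher (33.7% of all genes) and S100a1, S100a4 and S100a13 lower (34.1%). The S100a6 difference of 0.59 (SE 0.18, edgeR adjusted p = 0.0126) was 0.37 after removal of the length trend and was lost without replicate 2 of 4T1.2 or of 67NR, and without the latter 3 members were called. In 4T1, S100a6, S100a8, S100a11 and S100a16 were higher (33.9% of all genes) and S100a4 and S100a13 lower (34.4%), and the split was 2 higher and 3 lower with library totals or after removal of the length trend. Here the calls of S100a6 (0.49, SE 0.17, edgeR adjusted p = 0.0318) and S100a11 (0.33, SE 0.13, adjusted p = 0.0444) were lost in 5 and 10 of 21 alternatives, and without replicate 1 of 67NR 3 members were called. On chromosome 3, 421 of 657 other tested genes were lower and 106 higher in 4T1.2 than in 67NR. In 4T1, 410 of them were lower than in 67NR and 111 higher. Among the shortest 10% of genes, 524 of 1181 were higher than in 67NR and 235 lower in 4T1.2, and 583 higher and 215 lower in 4T1. The comparisons of lines share libraries and are not independent of each other.

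**Figure D3:**
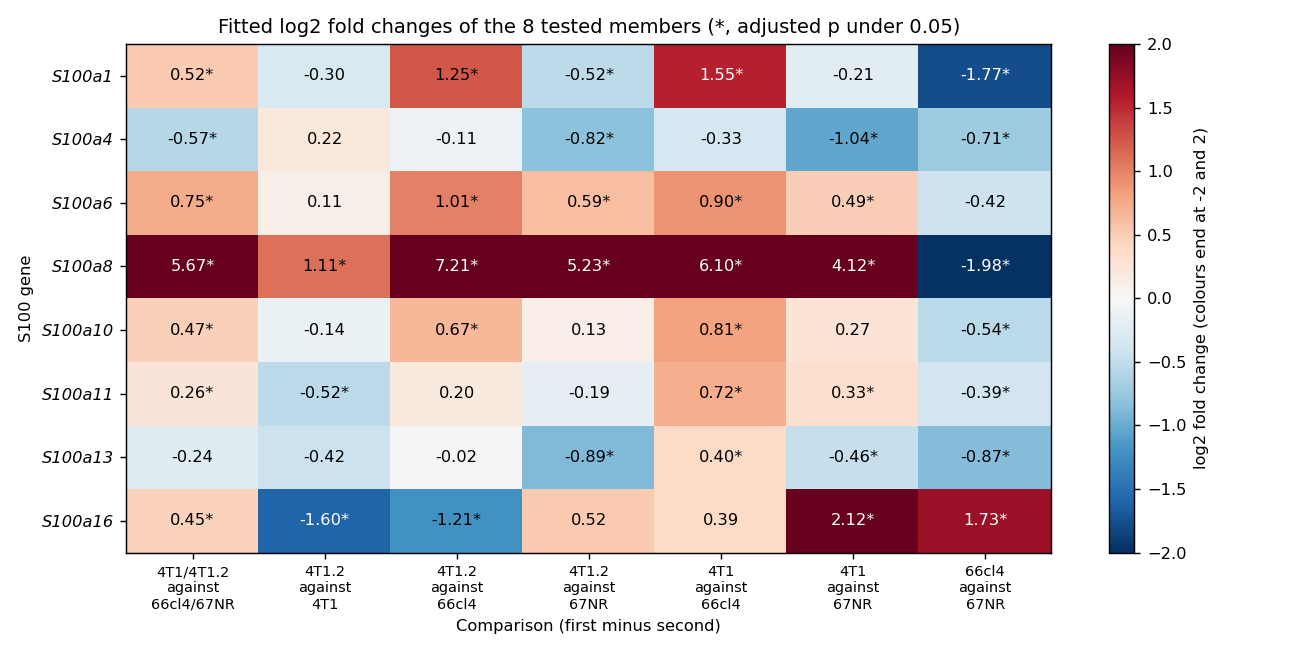
Fitted log2 differences (first minus second) of the 8 tested S100 genes in 7 comparisons, with colours that end at -2 and 2 and a star at an adjusted p under 0.05. The fitted values of S100a8 against 66cl4 rest on 2 to 3 counts there and are no bounds. S100a8 is red wherever 4T1.2 or 4T1 is set against 66cl4 or 67NR, and S100a16 is blue for 4T1.2 minus 4T1 and red for 66cl4 minus 67NR.

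**Figure D4:**
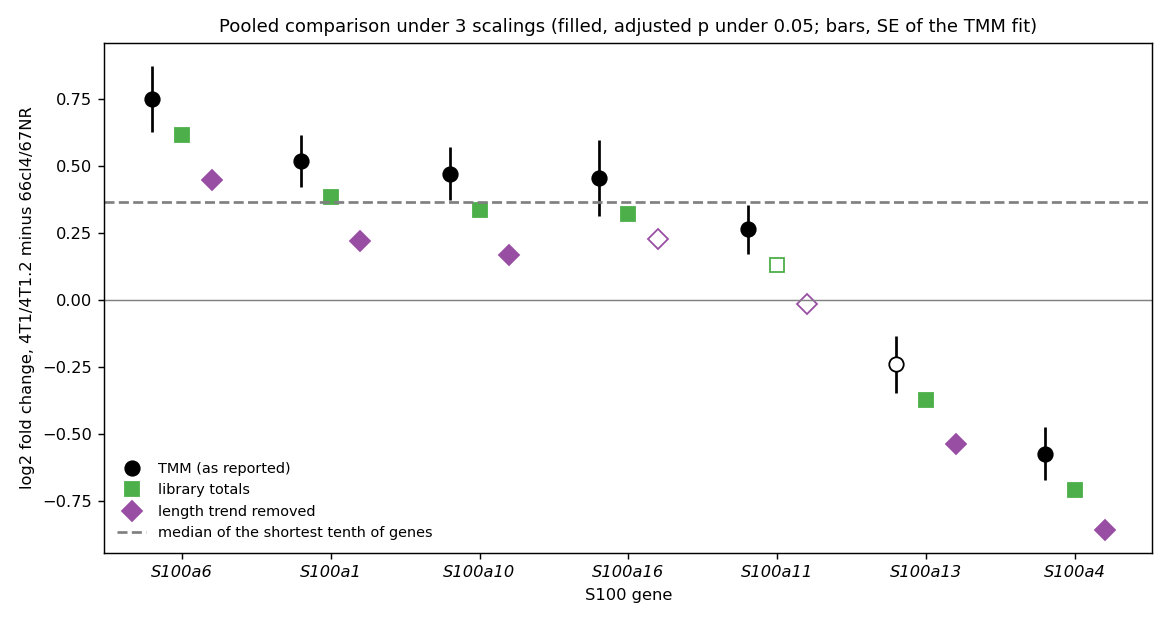
Log2 difference of 4T1/4T1.2 minus 66cl4/67NR for 7 S100 genes with TMM scaling (black, bars are SE), library totals (green) and the length trend removed (purple). Filled symbols have an adjusted p under 0.05 and the dashed line is the median of the shortest 10% of genes, 0.36. S100a6 and S100a4 keep their sides of 0, and S100a11 falls from 0.26 to -0.016.

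The members were also set beside their neighbours on chromosome 3. Between the outermost members lie 55 genes outside the S100 family, of which 50 had at most 3 counts in every library and 41 had none. Prr9 alone of these was tested, with 119 and 130 counts in 4T1.2, 12 and 16 in 4T1 and 0 in the 66cl4 and 67NR libraries. Like S100a8 it was higher in 4T1.2 than in 4T1. Among 31 tested genes between these members or within 1000000 bases of them, 8 were higher in 4T1/4T1.2 (38.1% of all genes) and 18 were lower (38.6%), with a median log2 difference of -0.25. Chromosome 3 as a whole was shifted against 67NR. Its 657 other tested genes had a median log2 difference of -0.62 for 4T1.2 minus 67NR, -0.56 for 4T1 minus 67NR and -0.59 for 66cl4 minus 67NR, beside -0.01, -0.01 and 0.00 over all genes. For 66cl4 minus 67NR, S100a10 and S100a4 lay at 0.05 and -0.12 from the chromosome's median, and S100a11 and S100a6 at 0.20 and 0.17. S100a13 lay at -0.28 from it, S100a1 at -1.18, S100a16 2.31 above it and S100a8, on 2 to 3 counts in 66cl4, at -1.39. For 4T1.2 minus 67NR, S100a6 lay 1.22 above the chromosome's median and S100a4 at -0.20 from it. The part of the chromosome's shift in the members' differences was not tested.

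**Figure D5:**
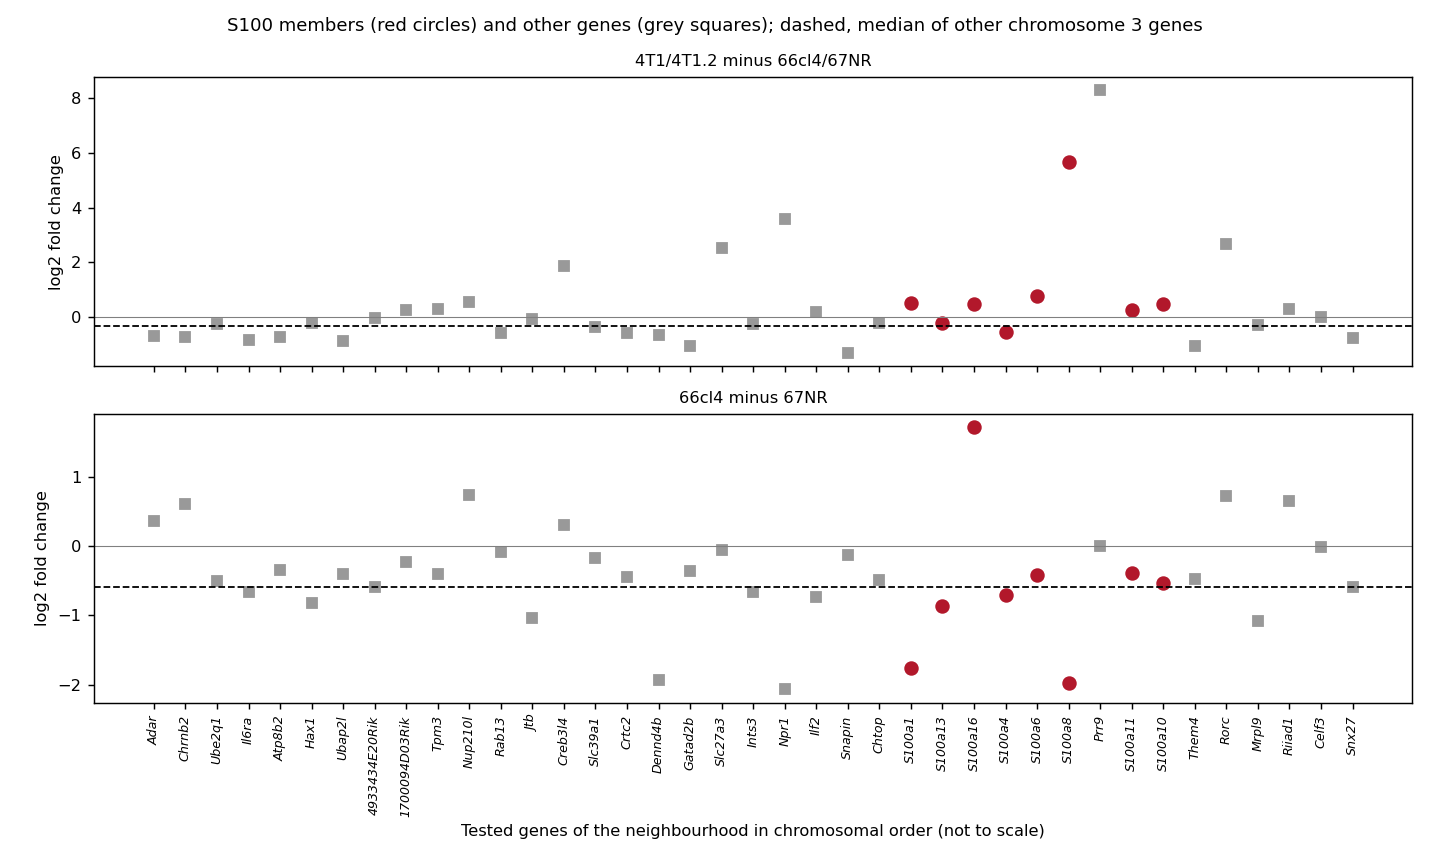
Log2 difference of the 8 tested S100 genes (red circles) and 31 other tested genes (grey squares) in chromosomal order, for 4T1/4T1.2 minus 66cl4/67NR above and 66cl4 minus 67NR below. The dashed lines mark the medians of 657 other chromosome 3 genes, -0.35 and -0.59. The fitted value of Prr9 rests on 0 counts in 66cl4 and 67NR and is no bound.

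Other S100 genes did not share a direction. Of 8 listed, S100a3, S100a5, S100a7a and S100b were tested, and in 4T1/4T1.2 1 was higher (38.1% of all genes) and 3 were lower (38.6%). S100a3 was higher in 4T1/4T1.2 by 0.72 (SE 0.11, edgeR adjusted p = 2.22e-04). S100a7a, the mouse counterpart of psoriasin, had 3083 and 5066 counts in 67NR, 931 and 831 in 66cl4, 446 and 323 in 4T1 and 586 and 752 in 4T1.2. Its pooled difference was -2.13 (SE 0.09, edgeR adjusted p = 1.38e-08), and 4T1.2 exceeded 4T1 by 0.72 (SE 0.13, adjusted p = 0.00444). It lies between S100a6 and S100a8 (chr3:90651925-90658130). S100a5 had at most 16 counts and S100b at most 35 in a library, and both were called lower in 4T1/4T1.2. S100a2 had at most 14 counts, S100g at most 1, and S100z and S100a7l2 had none.

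The genes whose log2 CPM followed each member most closely over the 8 libraries were taken from 11812 genes, and the correlations describe 4 lines with 2 libraries each, which share depth and length effects. S100a8 was followed most closely by Cadm4, Ipo5 and Golm1 (Pearson r 0.997, 0.997 and 0.996). Rnaseh2a and Zdhhc7 were among the closest to S100a4 (both 0.981), and S100a6 was followed by Cox5a, Snrnp40 and Mnd1-ps (0.991, 0.982 and 0.978). S100a16 was followed by Vsir, Fbxo32 and Sgk3 (0.979, 0.975 and 0.974). The closest genes were Tbcb for S100a1 (0.990), Etfb for S100a10 (0.991), Prelid1 for S100a11 (0.988) and Hdgf for S100a13 (0.976). Among the members the highest r was 0.929 between S100a6 and S100a8 and the lowest was -0.695 between S100a4 and S100a16.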

How the data were processed

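RNA was extracted from 4 mouse mammary tumour lines and libraries were made with the TruSeq RNA v2 kit, with 2 biological replicates a line. The authors aligned reads to mm10 with Rsubread and assigned them to Entrez genes with featureCounts, and the deposited values are raw counts per gene. Strand settings were not given in the sources used here. The labels spell 66cl4 with a digit, and the study's spelling was used. The 27179 identifiers were matched to RefSeq (GRCm38.p6), in which 25275 (93.0%) had an entry. Genes were filtered with filterByExpr (15269 left), and those lacking an entry, predicted ones and ribosomal ones were taken out, as in the study's methods, which left 13928. The removed genes held 5.24% to 7.85% of a library's counts. edgeR 4.0.16 (R 4.3.3, limma 3.58.1) fitted a mean for each line to all 8 libraries with TMM scaling, the legacy quasi-likelihood fit and a prior count of 0.125, on 4 residual degrees of freedom (biological coefficient of variation 9.74%). SE is the fitted log2 difference divided by the root of F. The fit was tested on simulated data.

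Alternatives were DESeq2 size factors, library totals, no filter, a minimum of 10 counts per library, keeping the genes taken out by annotation, the newer fit, robust estimation, DESeq2 1.42.0, limma-voom, a prior count of 2, a replicate block, the compared lines alone, each library left out and, added after the data were seen, a fit with a loess trend on exon length removed from each library, and counting ratios with each library left out. Members, lists and tests were chosen with earlier results of these data known. The genes named are the members, all genes of the lists, genes overlapping or lying between members, and the 3 genes most correlated with each member among those with a mean of at least 1 CPM, of which the closest alone is named for 4 members and 1 gene is not reported here. RefSeq windows were given for 8 of the 10 members. Figures were drawn with matplotlib.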

Additional observations from a re-analysis of the deposited data

How the results depend on the processing

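Over 1320 results of single members under an alternative, 1220 kept their direction and side of the threshold, 36 gained a call, 52 lost it and 12 changed sign. The number of members called across the 4 lines was 8 in every alternative except with a minimum of 10 counts per library, where S100a8 was not tested. With single libraries left out, where a line of 1 library is assumed to vary like the others, the members called ran from 5 to 7 in the pooled comparison, 2 to 5 in 4T1.2 against 4T1, 5 to 5 in 4T1.2 against 66cl4, 3 to 6 in 4T1.2 against 67NR, 5 to 7 in 4T1 against 66cl4, 3 to 6 in 4T1 against 67NR and 4 to 8 in 66cl4 against 67NR.

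The changes of sign concerned values that were not called, apart from S100a11 in the pooled comparison. Removal of the length trend gave log2 differences of -0.0159 for S100a11 in the pooled comparison and -0.0879 in 4T1.2 against 66cl4, and for S100a10 -0.0860 in 4T1.2 and -0.0326 in 4T1 against 67NR. Library totals gave -0.0165 for S100a10 in 4T1.2 against 67NR, and keeping the genes removed by annotation gave 0.0121 for S100a13 in 4T1.2 against 66cl4. With single libraries left out, the values that crossed 0 ran from -0.126 to 0.392 for S100a6 and from -0.336 to 0.0959 for S100a10 in 4T1.2 against 4T1, from -0.208 to 0.00466 for S100a4 and from -0.0951 to 0.0754 for S100a13 in 4T1.2 against 66cl4, and from -0.0131 to 0.257 for S100a10 in 4T1.2 against 67NR. S100a13 in 4T1.2 against 66cl4 was 0.0306 without replicate 2 of 66cl4. The cause was not tested.

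A fit with the replicate number as a block called 8 members in the pooled comparison and lost no call, while 4 results gained one. The replicate numbers were not taken to pair the libraries, since the deviations of same-numbered libraries correlated by 0.50 between 4T1.2 and 4T1 but from -0.24 to 0.16 between the other lines. In CPM without length S100a6 stood above S100a4 in 4T1.2 and 4T1. S100a8 in 66cl4, S100a9 and S100a14 are limited by depth.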
